A study of Mus musculus with 23 samples.

Results

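The genes described here are 9 that write, remove or read 5-methylcytosine in DNA. They were chosen by name, as the rows of the deposited expression table whose symbol is Dnmt1, Dnmt3a, Dnmt3b, Tet1, Tet2, Tet3, Tdg, Uhrf1 or Mbd2, and they are 9 of the 35322 genes listed. The study asked whether exposure of a dam to fine particulate matter (PM2.5) alters allergic airway disease (AAD) and the lung transcriptome of her grown offspring. RNA-Seq of poly(A) RNA was carried out on lung homogenates from 23 Balb/c offspring aged 13 weeks that the series describes as female. All 9 genes passed the filter on low values, so that 16795 genes including these 9 entered each test.

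There were 4 groups. Sham offspring (n = 7) came from dams given intranasal saline before mating, through gestation and until weaning, and received PBS in place of the allergen. PM offspring (n = 7) came from dams given PM2.5 in saline over the same period, also received PBS, and were never dosed with particles themselves. Sham-OVA (n = 5) and PM-OVA (n = 4) were the counterparts that were sensitised to and then challenged with ovalbumin (OVA), an egg protein that serves as the allergen. The OVA model gives a type 2 allergic response in an inbred strain, and the labels do not tie a library to a dam or litter, so that p-values measure the spread between these offspring and littermates cannot be told apart from unrelated animals. The labels name the tissue as lung (RML), and the alveolar type 2 marker Sftpc stood at 6490 RPM or more in each library.

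Methyl groups on cytosine are placed by DNA methyltransferases, and in mammals they sit mostly at CpG dinucleotides. DNMT3A and DNMT3B set new marks, while UHRF1 recognises the hemimethylated DNA left by replication and brings DNMT1 to copy the mark onto the new strand. TET enzymes oxidise 5-methylcytosine, TDG cuts out the oxidised base so that repair can replace it, and MBD2 binds methylated CpGs and brings the NuRD repressor complex. In the lung as elsewhere, the balance of these enzymes bears on the methylation that cells carry. Methylation itself is not analysed here, and a transcript level is neither an enzyme activity nor a methylation level.

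Values are RPM, the reads on a gene scaled to a common library total. They carry the name RPKM, but 100% of them came out as whole reads, for short and long genes alike. Reads on genes numbered 13089691 to 17393579 in the 14 saline libraries and 2298645 to 12355561 in the 9 challenged ones. PM-OVA replicates 3 and 4 and Sham-OVA replicate 3 held fewer than 6000000 and are called the 3 shallow libraries. Fits without them keep only replicates 1 and 2 of PM-OVA. 1 library, Sham replicate 1, went against the female label, with the Y-linked gene Eif2s3y at 54.0 RPM and Xist at 0.289 RPM, and without it the counts of called members after the OVA challenge were the same. Tests were limma fits on log2(RPM + 0.5) with Benjamini-Hochberg adjustment over all genes tested, and a gene was called where the adjusted p was under 0.05. In whole lung, fewer cells of a type and less RNA per cell cannot be told apart.

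Promoter windows of 300 bases, 250 before and 50 after a transcription start, were taken from RefSeq (build GRCm38.p6) for 8 of the 9 genes. They are shown for the genes of the copying machinery, Dnmt1 and Uhrf1, which are known for their rise in S phase, and for Tet2 and Tet3, which moved together in the comparisons that follow. The capitals mark E2F-type motifs (TTTGGCGC, TTTCCCGC, TTTGCCGC or TTTCGCGC) and CCAAT boxes (CCAAT), each searched on both strands. The windows lie at chr9:20952574-20952873 (minus strand) for Dnmt1, chr17:56304063-56304362 (plus strand) for Uhrf1, chr3:133544341-133544640 (minus strand) for Tet2 and chr6:83441629-83441928 (minus strand) for Tet3.
Dnmt1: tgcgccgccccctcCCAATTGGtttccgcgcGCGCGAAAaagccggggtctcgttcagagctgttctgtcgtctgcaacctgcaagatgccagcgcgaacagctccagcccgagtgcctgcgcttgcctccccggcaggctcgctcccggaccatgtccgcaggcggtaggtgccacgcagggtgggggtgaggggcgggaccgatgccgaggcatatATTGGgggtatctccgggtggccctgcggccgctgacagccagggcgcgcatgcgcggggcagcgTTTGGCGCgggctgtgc
Uhrf1: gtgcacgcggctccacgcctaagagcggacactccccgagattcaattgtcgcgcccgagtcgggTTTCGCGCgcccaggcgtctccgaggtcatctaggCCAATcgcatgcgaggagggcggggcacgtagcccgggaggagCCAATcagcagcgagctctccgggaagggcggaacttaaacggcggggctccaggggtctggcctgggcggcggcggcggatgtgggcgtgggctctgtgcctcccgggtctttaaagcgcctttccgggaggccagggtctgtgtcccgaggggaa
Tet2: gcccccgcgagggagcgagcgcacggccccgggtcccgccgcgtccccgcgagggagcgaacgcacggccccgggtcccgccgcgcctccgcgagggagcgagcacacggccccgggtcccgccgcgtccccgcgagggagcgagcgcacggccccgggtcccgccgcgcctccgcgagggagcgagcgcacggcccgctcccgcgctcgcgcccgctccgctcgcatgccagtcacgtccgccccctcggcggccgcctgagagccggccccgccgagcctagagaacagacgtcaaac
Tet3: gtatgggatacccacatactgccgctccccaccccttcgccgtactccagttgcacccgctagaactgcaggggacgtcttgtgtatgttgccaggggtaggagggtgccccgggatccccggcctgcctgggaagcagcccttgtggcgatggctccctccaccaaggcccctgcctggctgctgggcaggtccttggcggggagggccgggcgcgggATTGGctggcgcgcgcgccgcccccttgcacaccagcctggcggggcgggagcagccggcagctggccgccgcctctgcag

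An E2F-type motif was found in a window of Dnmt1 and in a window of Uhrf1, 2 of the 8 genes. Of 32851 RefSeq promoter windows of the same length, 2.26% hold one. That is a share of windows, whereas Dnmt1 had 3 windows and Uhrf1 2, so that the count of genes cannot be set against it. The Dnmt1 window printed above held 2 such motifs and the Uhrf1 window 1, and the other windows of these genes held none. CCAAT was found in windows of 4 genes (Dnmt1, Uhrf1, Tet3 and Tdg). It is present in 37.4% of all windows, again a share of windows and not of genes. The Tet2 window had no searched motif and was the densest of the 13 member windows in CpG, with 57 CpG dinucleotides compared to a median of 7 over all promoters. Tet3 had 22, Tet1 17, Tdg 26, Dnmt3b 30 and the 3 windows of Dnmt3a 18 to 47. The windows of Dnmt1 had 2, 12 and 33 and those of Uhrf1 12 and 33, with 33 in the printed one of each. A match to these letters is a description of the sequence and not a binding site.

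In lungs without allergen, the reader Mbd2 had the highest level per transcript length and Uhrf1 the lowest. Mean levels in Sham were 74.4 RPM per kb for Mbd2, 10.8 for Tet3, 7.71 for Dnmt3a, 5.93 for Tet2, 5.68 for Dnmt1, 1.34 for Dnmt3b, 0.623 for Tet1, 0.204 for Tdg and 0.121 for Uhrf1 (n = 7). The libraries of Tet3, Dnmt3a and Tet2 overlapped, as did those of Tet2 and Dnmt1 and those of Tdg and Uhrf1, so that the ranges do not separate these neighbours in the order. Within a library Tet3 was nevertheless above Dnmt3a and above Tet2 in 7 of 7, while Dnmt3a was above Tet2 in 6, Tdg above Uhrf1 in 6 and Tet2 above Dnmt1 in 3. In Sham-OVA the order was Mbd2 (44.8 RPM per kb), Dnmt1 (6.31), Dnmt3a (4.72), Tet3 (2.24), Tet2 (1.03), Dnmt3b (0.910), Tdg (0.711), Uhrf1 (0.178) and Tet1 (0.0982) (n = 5). By mean level Dnmt1 held the fifth place in Sham and the second in Sham-OVA, where it was above Dnmt3a in 5 of 5 libraries although their ranges overlapped. Tet3, Dnmt3a and Tet2, which it passed, have transcripts above 8 kb. The median log2 fold change of all genes in that length class was -1.22 in Sham-OVA compared to Sham. Dnmt1 itself was not called in that comparison. Tet1 and Uhrf1 overlapped in Sham-OVA, and Uhrf1 was the lower of them in 2 of 5 libraries, so that the last place of Tet1 was within the spread. Lengths are those of the longest GENCODE vM21 transcript, from 1.95 kb for Mbd2 to 14.4 kb for Tet1, and the isoform that the lung uses was not tested.

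**Figure D1:**
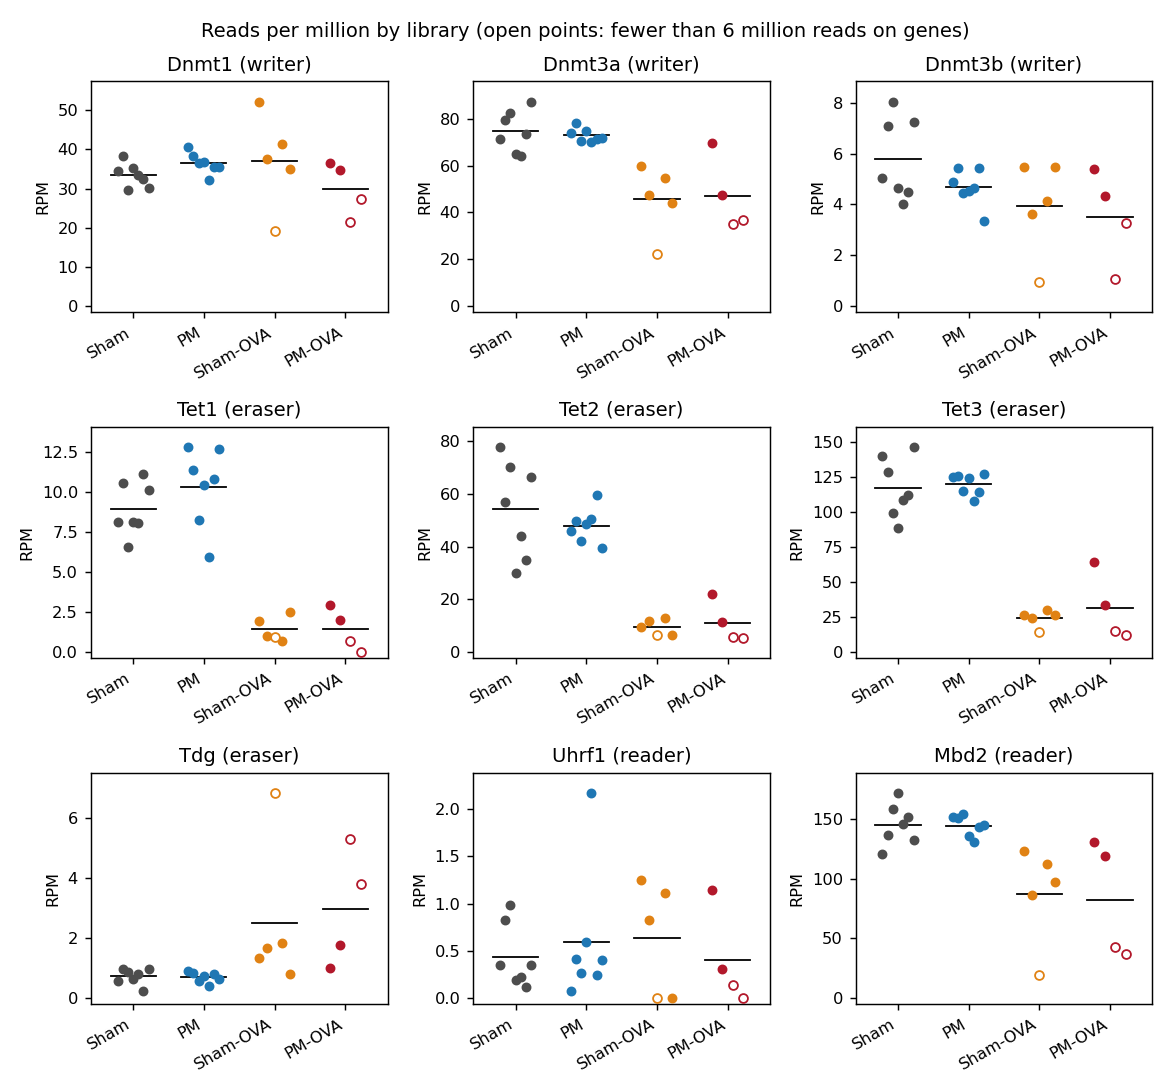
Scaled read counts (RPM, linear axis, a scale of its own in each panel) of the 9 genes in each of the 23 libraries by group; points are libraries, black lines group means, and open points the 3 shallow libraries. All challenged libraries lie below all saline libraries of the same maternal cohort for Tet1, Tet2, Tet3 and Dnmt3a.

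After the OVA challenge, 6 of the 9 genes were called in each maternal cohort. In Sham-OVA compared to Sham, 5 were lower (Dnmt3a, Tet1, Tet2, Tet3 and Mbd2) and 1 was higher (Tdg). Of all genes tested, 47.5% were called lower and 20.6% higher in that comparison. In PM-OVA compared to PM the same 5 genes were lower and the same 1 was higher, beside 45.2% of all genes called lower and 20.1% higher. Calls were thus common in both comparisons, and the share of members called is to be read against them. The median log2 fold change of the 9 genes was -0.77 in the Sham cohort and -0.68 in the PM cohort, and that of all genes was -0.48 and -0.43. With the trimmed mean of M-values (TMM) scaling the medians of all genes moved to -0.09 and -0.04, and the split of calls from 3453 higher and 7978 lower to 5293 and 5905 in the Sham cohort and from 3379 and 7589 to 5345 and 5495 in the PM cohort.

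The stricter threshold of the study, an adjusted p under 1e-06 with an absolute log2 fold change above 1, was passed in the limma fits by Tet3 alone of the 9 genes in the Sham cohort and by none in the PM cohort. Of all genes, 4.51% and 0.286% passed it there. With DESeq2 on the recovered reads it was passed by 3 of the 9 genes in each cohort, Tet1, Tet2 and Tet3, beside 28.9% of all genes in the Sham cohort and 17.0% in the PM cohort. Every challenged library lay below every saline library for 4 of the 9 genes (Dnmt3a, Tet1, Tet2 and Tet3) in the Sham cohort and for the same 4 in the PM cohort, where 35.0% and 28.6% of all genes did so. Every challenged library lay above every saline library for none of the 9 in the Sham cohort and for Tdg in the PM cohort, where 13.2% and 13.3% of all genes did so.

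**Figure D2:**
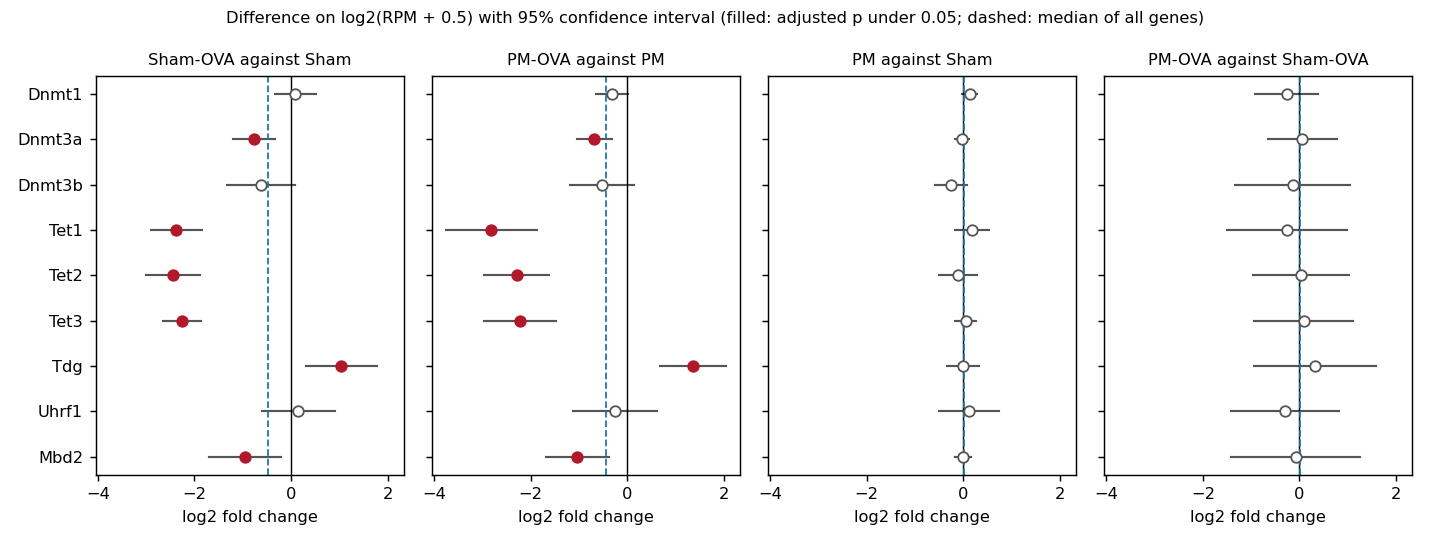
Log2 fold changes of the 9 genes on log2(RPM + 0.5) in 4 comparisons; points are estimates, lines 95% confidence intervals, filled points adjusted p under 0.05 in limma, and the dashed line is the median of all genes tested. The 3 Tet genes lie left of the other members after the OVA challenge, between -2.26 and -2.44 in the Sham cohort and between -2.22 and -2.82 in the PM cohort, while no member is called in PM compared to Sham or in PM-OVA compared to Sham-OVA.

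Among the writers, the maintenance methyltransferase Dnmt1 was not called in either cohort. Dnmt1 (chromosome 9, 20907209 to 20959888, minus strand) ranged from 29.5 to 38.2 RPM in Sham with a median of 33.4. Sham-OVA libraries had 52.2, 37.5, 19.3, 41.4 and 35.0 RPM. The lowest of these was the shallowest library and the highest exceeded each Sham library, so that the groups overlapped on both sides. PM ranged from 32.2 to 40.5 RPM (median 36.4), and PM-OVA had 36.6, 34.8, 21.4 and 27.2 RPM, with the lower values in the shallow libraries. The log2 fold change was 0.09 (SE 0.20, adjusted p = 0.714, limma) in the Sham cohort and -0.31 (SE 0.15, adjusted p = 0.0954, limma) in the PM cohort. In the Sham cohort the call depended on scaling and on that library: Dnmt1 rose by 0.54 (adjusted p = 0.00179) with TMM scaling in limma and by 0.30 (adjusted p = 0.0340) without Sham-OVA replicate 3. In the PM cohort the sign turned with quantile, median-of-ratios and TMM scaling, DESeq2 and edgeR (0.0534 to 0.15, none called), and Dnmt1 was called lower with array weights (-0.58, adjusted p = 0.00289, limma) and without PM-OVA replicate 1 (-0.41, adjusted p = 0.0237, limma).

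The de novo methyltransferase Dnmt3a fell after the OVA challenge by less than the Tet genes. Dnmt3a (chromosome 12, 3806007 to 3914443, plus strand) ranged from 64.0 to 87.3 RPM in Sham (median 73.3) and had 59.9, 47.4, 22.4, 54.7 and 44.1 RPM in Sham-OVA. PM ranged from 70.0 to 78.2 RPM (median 71.6), and PM-OVA had 69.4, 47.4, 34.9 and 36.7 RPM. The groups did not overlap in either cohort, although the highest PM-OVA library lay within 1 RPM of the lowest PM library. It fell by 0.77 on the log2 scale in the Sham cohort (SE 0.21, adjusted p = 0.00414, limma) and by 0.68 in the PM cohort (SE 0.17, adjusted p = 0.00362, limma). Relative to the median of all genes this was -0.29 and -0.25, and the calls were lost with TMM scaling (adjusted p = 0.0531 and 0.0866 in limma). They were also lost once the trend of fold change with transcript length and GC content was removed, where the log2 fold changes were -0.18 and -0.12.

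Dnmt3b, the other de novo enzyme, was the least abundant writer. Dnmt3b (chromosome 2, 153649450 to 153687730, plus strand) ranged from 4.01 to 8.05 RPM in Sham (median 5.02) and had 5.49, 3.61, 0.932, 4.14 and 5.48 RPM in Sham-OVA. PM ranged from 3.36 to 5.44 RPM (median 4.64), and PM-OVA had 5.38, 4.33, 1.06 and 3.27 RPM. The groups overlapped in both cohorts, and the lowest value of each challenged group came from a shallow library, 3 reads in the case of Sham-OVA replicate 3. Its log2 fold changes of -0.62 (SE 0.33, adjusted p = 0.105, limma) and -0.51 (SE 0.31, adjusted p = 0.157, limma) were not called. Of the 100-base windows of its transcript, 5.71% are identical to sequence of Dnmt3c, a germline relative listed at a median of 0 RPM in each group.

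Among the erasers, the 3 Tet dioxygenases fell in both cohorts and showed the largest falls of the 9 genes. Tet3 (chromosome 6, 83362373 to 83459084, minus strand), the most abundant of them, ranged from 88.4 to 146 RPM in Sham (median 112). Sham-OVA libraries had 26.6, 24.7, 14.6, 29.7 and 26.4 RPM, so that the highest of them lay far below the lowest Sham library. PM ranged from 108 to 127 RPM (median 125), and PM-OVA had 64.2, 33.9, 15.3 and 12.2 RPM. PM-OVA replicate 1 stood above the other challenged libraries of both cohorts and still below each PM library. Tet3 was 4.80-fold lower in Sham-OVA than in Sham (log2 fold change -2.26, SE 0.18, adjusted p = 1.74e-07, limma) and 4.67-fold lower in PM-OVA than in PM (-2.22, SE 0.34, adjusted p = 2.23e-04, limma).

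Tet2 (chromosome 3, 133463679 to 133545139, minus strand), the member of the family that is mutated most often in blood cancers, varied more between saline libraries. It ranged from 30.2 to 77.8 RPM in Sham (median 57.0) and had 9.45, 11.9, 6.52, 13.1 and 6.43 RPM in Sham-OVA. PM ranged from 39.4 to 59.5 RPM (median 48.5), and PM-OVA had 22.1, 11.4, 5.58 and 5.27 RPM. In each cohort all challenged libraries were below all saline ones. The log2 fold change was -2.44 (SE 0.26, adjusted p = 2.17e-06, limma) in the Sham cohort and -2.29 (SE 0.31, adjusted p = 1.14e-04, limma) in the PM cohort.

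Tet1 (chromosome 10, 62804570 to 62908996, minus strand), best known from embryonic stem cells, was the rarest of the 3. It ranged from 6.54 to 11.1 RPM in Sham (median 8.14) and had 1.95, 0.978, 0.932, 0.717 and 2.48 RPM in Sham-OVA. PM ranged from 5.93 to 12.8 RPM (median 10.8), and PM-OVA had 2.96, 2.01, 0.664 and 0 RPM. The 0 stood in PM-OVA replicate 4, where a count of 0 allows up to 0.545 RPM (3 reads, counting error only), and the challenged libraries held 0 to 44 reads of Tet1 compared to 101 to 223 in the saline ones. Tet1 fell by 2.38 on the log2 scale in the Sham cohort (SE 0.25, adjusted p = 1.56e-06, limma) and by 2.82 in the PM cohort (SE 0.43, adjusted p = 2.25e-04, limma). Without the shallow libraries the log2 fold changes in the PM cohort were -1.84 for Tet1, -1.55 for Tet2 and -1.35 for Tet3, and all 3 stayed called. Only PM-OVA replicates 1 and 2 remained in that fit.

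Between 1.77% (Tet1, PM cohort) and 5.13% (Tet3, Sham cohort) of all genes tested had a log2 fold change below that of a Tet gene. The 3 Tet transcripts and Dnmt3a are also the 4 members longer than 8 kb. Over all genes, the median log2 fold change in the Sham cohort was 0.10 below 2 kb, -0.40 from 2 to 4 kb, -0.87 from 4 to 8 kb and -1.22 in the 876 genes above 8 kb. In the PM cohort these medians were 0.13, -0.33, -0.83 and -1.18. Of the 876 long genes, 77.9% were called lower in the Sham cohort and 78.1% in the PM cohort, and 16.6% and 16.7% fell by more than 2 on the log2 scale. With the trend with length and GC content removed, the log2 fold changes were -1.42 and -1.86 for Tet1, -1.63 and -1.46 for Tet2, and -1.71 and -1.71 for Tet3, all called in both cohorts. The part of RNA fragmentation in this length dependence was not tested.

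**Figure D3:**
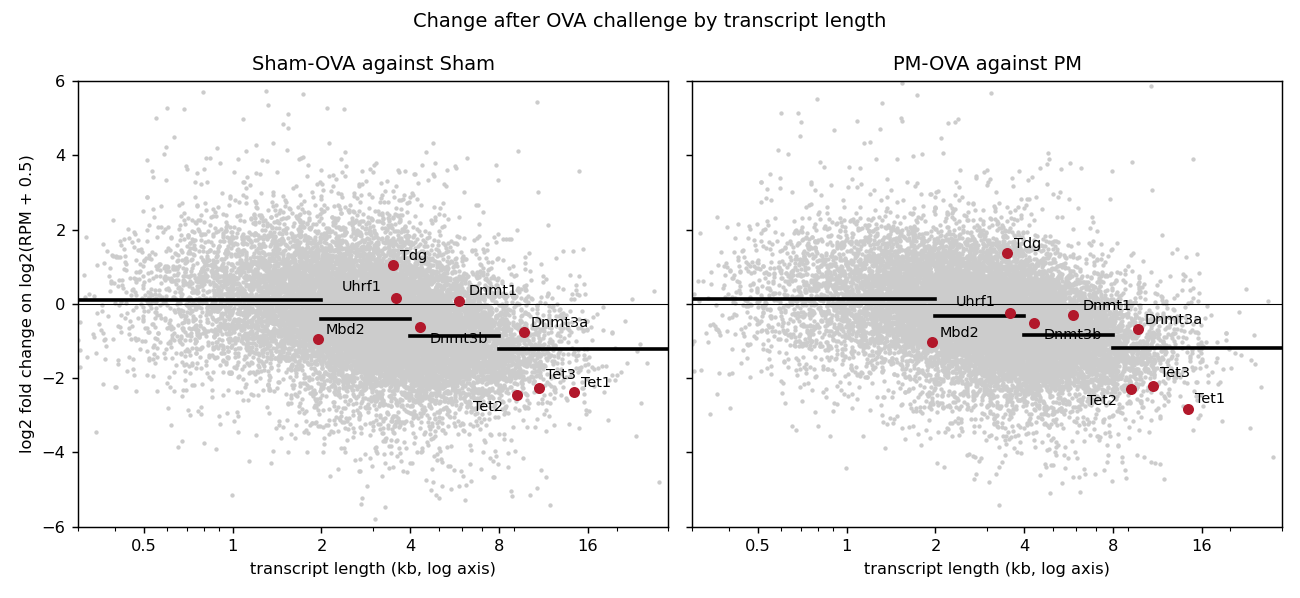
Log2 fold change on log2(RPM + 0.5) after the OVA challenge against transcript length (kb, log axis) for the genes tested (grey points; those outside the axis limits are not drawn), with the 9 members in red and the median of each length class as a black bar. The medians fall from 0.10 to -1.22 in the Sham cohort and from 0.13 to -1.18 in the PM cohort, and the 3 Tet genes lie below the bar of their class.

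Tdg, the gene of the glycosylase that cuts out the oxidised base, rose in both cohorts from a level of few reads. Tdg (chromosome 10, 82629828 to 82650799, plus strand) ranged from 0.232 to 0.954 RPM in Sham (median 0.780) and had 1.32, 1.66, 6.84, 1.83 and 0.803 RPM in Sham-OVA. PM ranged from 0.411 to 0.894 RPM (median 0.724), and PM-OVA had 1.01, 1.78, 5.31 and 3.81 RPM. The groups overlapped in the Sham cohort through Sham-OVA replicate 5 and did not overlap in the PM cohort. The log2 fold change was 1.04 (SE 0.35, adjusted p = 0.0152, limma) and 1.37 (SE 0.32, adjusted p = 0.00239, limma). These values rest on 4 to 40 reads per library, and 46.0% of the 100-base windows of the transcript are identical to sequence of other genes, among them the pseudogene Tdg-ps and the antisense neighbour Glt8d2, so that the level assigned to Tdg is uncertain.

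The 3 shallow libraries had the highest Tdg of the 23, at 3.81 to 6.84 RPM. The other 6 challenged libraries had 0.803 to 1.83 RPM and the 14 saline ones 0.232 to 0.954 RPM. Without the 3 shallow libraries Tdg stayed called, at a log2 fold change of 0.65 in each cohort (adjusted p = 0.0192 and 0.0349, limma). With all libraries thinned to one depth it was 0.77 in the Sham cohort and no longer called (adjusted p = 0.1004), and 1.26 in the PM cohort (adjusted p = 0.0225, limma).

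Mbd2, the methyl-CpG reader of one form of the NuRD complex and the shortest transcript of the 9, fell in both cohorts, with the largest fall in the same 3 libraries. Mbd2 (chromosome 18) ranged from 121 to 172 RPM in Sham (median 146) and had 123, 86.0, 19.3, 112 and 97.1 RPM in Sham-OVA. PM ranged from 131 to 155 RPM (median 145), and PM-OVA had 131, 119, 42.6 and 37.0 RPM. The groups overlapped in both cohorts through replicate 1 of each challenged group. The log2 fold change was -0.96 (SE 0.35, adjusted p = 0.0250, limma) and -1.03 (SE 0.31, adjusted p = 0.0101, limma). The shallow libraries had 19.3 to 42.6 RPM, the other 6 challenged ones 86.0 to 131 RPM and the saline ones 121 to 172 RPM. Without the 3 shallow libraries Mbd2 was at -0.48 in the Sham cohort (adjusted p = 0.00198, limma) and at -0.21 in the PM cohort, where the call was lost (adjusted p = 0.101, limma). In the PM cohort that fit held only replicates 1 and 2 of PM-OVA. The Sham cohort call was also lost with TMM scaling (adjusted p = 0.104, limma), DESeq2 (adjusted p = 0.0710), edgeR (adjusted p = 0.178) and the replicate block (adjusted p = 0.0504, limma), and the PM cohort call with edgeR (adjusted p = 0.0593). With the trend with length and GC content removed, Mbd2 was at -1.53 and -1.63 and called in both cohorts. The part of RNA quality in this relation to depth was not tested.

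Uhrf1, the reader that couples DNMT1 to replication, was close to the limit of detection in each group. Uhrf1 (chromosome 17, 56303321 to 56323486, plus strand) ranged from 0.116 to 0.984 RPM in Sham (median 0.346) and had 1.25, 0.828, 0, 1.12 and 0 RPM in Sham-OVA. PM ranged from 0.0688 to 2.17 RPM (median 0.398), and PM-OVA had 1.14, 0.309, 0.133 and 0 RPM. The libraries held 0 to 37 reads of it, and the 0 in Sham-OVA replicates 3 and 5 and PM-OVA replicate 4 allows up to 0.932, 0.219 and 0.545 RPM. Its log2 fold changes of 0.15 (SE 0.36, adjusted p = 0.716, limma) and -0.26 (SE 0.40, adjusted p = 0.588, limma) were not called. On the recovered reads, without the 0.5 RPM pseudocount, the Sham cohort gave 0.92 (SE 0.75) with DESeq2 and 1.06 with edgeR. The PM cohort gave -0.26 with DESeq2 and -0.08 with edgeR. Uhrf1 was called in none of these fits, and a difference was not detectable at this depth. The identical share of its windows, 7.05%, belongs to Gm5648.

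Genes of the cell cycle rose in both cohorts, where neither Uhrf1 nor Dnmt1 was called in the main fits. With TMM scaling, DESeq2 and edgeR, Dnmt1 was called higher in the Sham cohort (0.54, 0.50 and 0.57) but not in the PM cohort. Uhrf1 had few reads in each library, so that a difference was not detectable. Of all genes tested, 20.6% were called higher in the Sham cohort and 20.1% in the PM cohort. Of 15 mitosis genes, 14 were called higher and 0 lower in the Sham cohort and 12 and 0 in the PM cohort, with medians of 2.60 and 1.33, among them the kinase Cdk1 (3.73 and 2.88) and the anaphase activator Cdc20 (3.43 and 2.96). The proliferation marker Mki67 was on the list and was not called in either cohort. It stood at 0.311 to 1.19 RPM in the 3 shallow libraries, 9.93 to 74.2 RPM in the other challenged ones and 7.17 to 40.3 RPM in the saline ones. S-phase genes were called higher in 16 of 20 and lower in 1 (Mcm7) in the Sham cohort, and higher in 11 and lower in 0 in the PM cohort, with medians of 1.37 and 0.82. Cyclin E1 (Ccne1) rose by 3.61 and 2.87 and the ribonucleotide reductase subunit Rrm2 by 3.47 and 2.46. The log2 ratio of Uhrf1 to the mean of the mitosis genes within a library was -1.36 ± 0.37 (SD, n = 7) in Sham and -1.57 ± 0.30 (n = 7) in PM. In Sham-OVA it was -3.49 ± 0.42 (n = 5) and in PM-OVA -3.23 ± 0.62 (n = 4), with all challenged libraries below all saline ones. The mitosis mean itself rose from 1.19 in Sham to 3.47 in Sham-OVA and from 1.52 in PM to 2.91 in PM-OVA. Uhrf1 was near the limit of detection in each group. The lower ratio thus repeats the rise of the mitosis genes and gives no information on Uhrf1. At so few reads this ratio also depends on the pseudocount of 0.5 RPM, most where Uhrf1 is at 0.

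**Figure D4:**
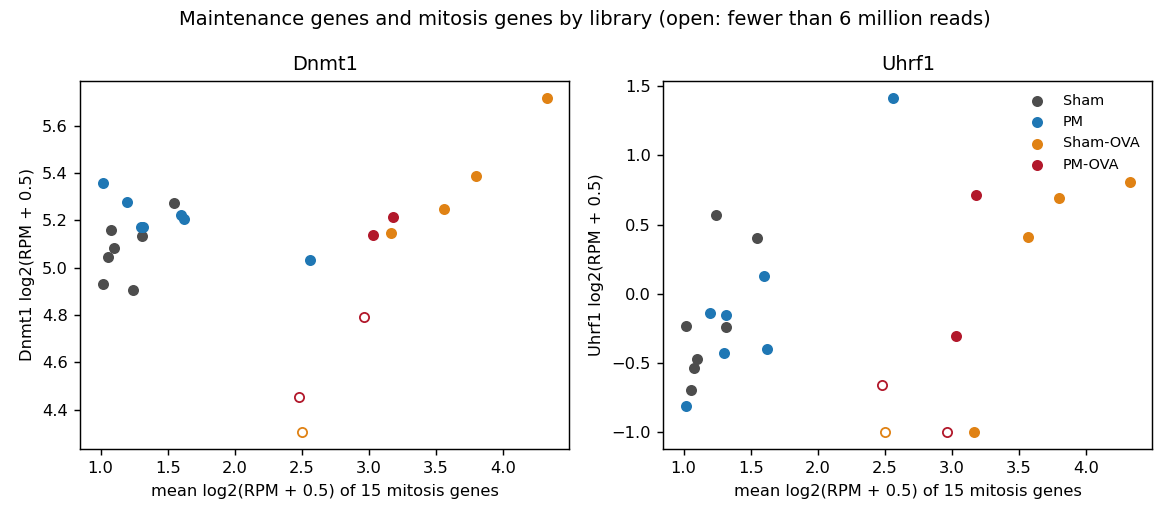
Log2(RPM + 0.5) of Dnmt1 and of Uhrf1 against the mean log2(RPM + 0.5) of 15 mitosis genes in each of the 23 libraries, coloured by group; open points are the 3 shallow libraries. Mitosis means are 1.01 to 2.56 in saline libraries and 2.48 to 4.33 in challenged ones, whereas both maintenance genes cover overlapping ranges.

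Plain ratios of RPM within a library do not depend on how it was scaled. The summed Tet1, Tet2 and Tet3 level per kb, divided by the sum of Dnmt1, Dnmt3a and Dnmt3b, was 0.868 to 1.52 in Sham (median 1.15) and 0.221 to 0.364 in Sham-OVA (median 0.299). Ranges in the PM cohort were 1.08 to 1.21 before (median 1.15) and 0.184 to 0.581 after the challenge (median 0.327), so that no challenged library reached a saline one. This ratio and those to Dnmt1 were chosen after the values had been seen, are given without a test, and carry the length dependence above. The Tet sum was 17.3 ± 3.61 RPM per kb in Sham and 3.37 ± 0.773 in Sham-OVA (SD, n = 7 and 5), and 17.0 ± 0.863 in PM and 4.18 ± 3.14 in PM-OVA (n = 7 and 4). The Dnmt sum was 14.7 ± 1.14, 11.9 ± 3.87, 14.8 ± 0.750 and 10.8 ± 3.13 RPM per kb in the same order.

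The make-up of each family differed in how far it moved. Tet3 made up a mean of 62.8% of the Tet sum per kb in Sham and 66.4% in Sham-OVA, and 65.0% in PM and 68.2% in PM-OVA, with ranges that overlapped across all 4 groups. Dnmt1 made up 38.8% ± 4.57 of the Dnmt sum in Sham and 53.2% ± 2.34 in Sham-OVA (SD, n = 7 and 5), without overlap, and 41.9% ± 1.37 in PM and 48.0% ± 3.68 in PM-OVA (n = 7 and 4), with overlap. These shares were not among the planned ratios, are given without a test and carry the length dependence above. The transcript of Dnmt1 is 5.87 kb and that of Dnmt3a 9.685 kb. With the length and GC trend removed, Dnmt3a was at -0.18 and -0.12 and not called. Dnmt3a to Dnmt1 in RPM was 1.84 to 2.91 in Sham and 1.15 to 1.32 in Sham-OVA, and 1.82 to 2.17 in PM and 1.35 to 1.90 in PM-OVA. The log2 ratio of Dnmt3b to Dnmt3a overlapped across the groups, with means from -3.84 in PM to -3.47 in Sham-OVA, as did that of Uhrf1 to Dnmt1, with means from -5.26 in PM to -5.18 in Sham-OVA. Overlap across the groups was also seen in the log2 ratios of Tet1 to Tet2 (means -2.72 in PM-OVA to -2.19 in PM) and of Tet3 to Tet2 (means 1.16 in Sham to 1.39 in PM-OVA). These log2 ratios are differences of log2(RPM + 0.5), so that those of Uhrf1, Tet1 and Dnmt3b depend on the pseudocount and on scaling, most where Uhrf1 or Tet1 is at 0.

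**Figure D5:**
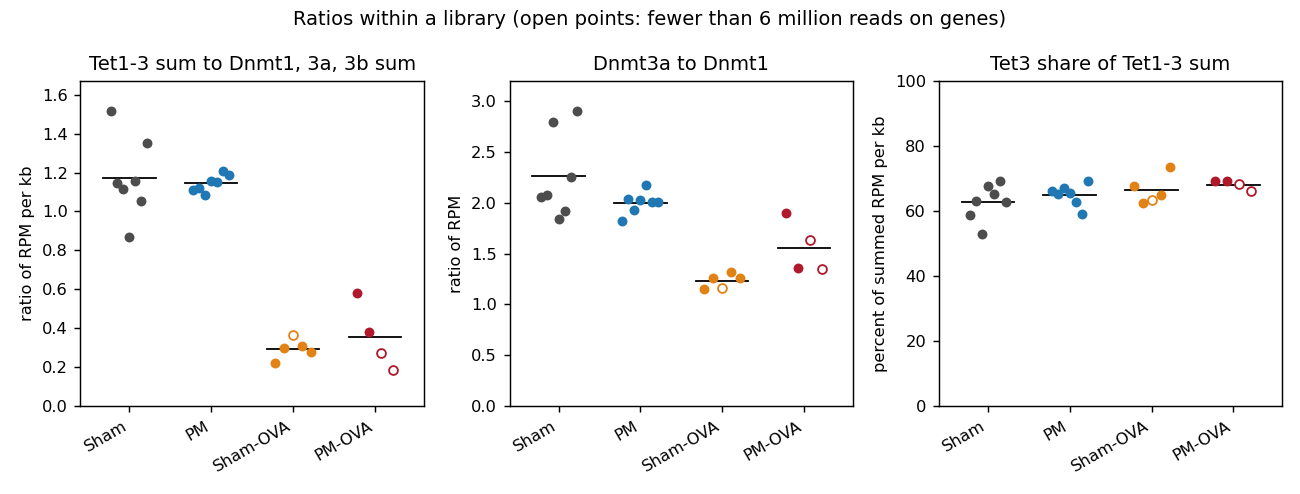
Ratios of member levels within each of the 23 libraries by group (points are libraries, black lines means, open points the 3 shallow libraries). The ratio of the Tet sum to the Dnmt sum lies at 0.868 or above in saline libraries and at 0.581 or below in challenged ones, while the Tet3 share of the Tet sum overlaps between all groups.

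Maternal exposure was not accompanied by a called difference in any of the 9 genes. In PM compared to Sham, 0 members were called, beside 0.0% of all genes. Limma called 0 of 16795 genes, as did DESeq2 and edgeR on the recovered reads, while 731 genes had an unadjusted p under 0.05, none of them a member. Log2 fold changes were 0.13 for Dnmt1, -0.03 for Dnmt3a, -0.25 for Dnmt3b, 0.18 for Tet1, -0.11 for Tet2, 0.05 for Tet3, -0.01 for Tdg, 0.12 for Uhrf1 and -0.00083 for Mbd2. Their 95% confidence intervals were narrow for abundant members, from -0.02 to 0.28 for Dnmt1 and from -0.18 to 0.12 for Dnmt3a, and wide for Uhrf1, from -0.51 to 0.74.

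In PM-OVA compared to Sham-OVA, 0 members were called, beside 0.0% of all genes. Limma called 0 genes, edgeR 0 and DESeq2 1, and 313 genes had an unadjusted p under 0.05, again none of them a member. Log2 fold changes were -0.26 for Dnmt1, 0.06 for Dnmt3a, -0.14 for Dnmt3b, -0.26 for Tet1, 0.04 for Tet2, 0.09 for Tet3, 0.32 for Tdg, -0.29 for Uhrf1 and -0.07 for Mbd2. The 95% confidence intervals ran from -0.94 to 1.12 for Tet3 and from -0.96 to 1.03 for Tet2, so that differences of this size were not detectable between 5 and 4 libraries.

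The difference between the cohorts in their response to OVA was tested as an interaction of maternal exposure and challenge. Again 0 members were called, beside 0.0% of all genes. Limma and edgeR called 0 genes and DESeq2 2, and 854 genes had an unadjusted p under 0.05, none of them a member. The interaction was -0.39 for Dnmt1, 0.09 for Dnmt3a, 0.11 for Dnmt3b, -0.44 for Tet1, 0.15 for Tet2, 0.04 for Tet3, 0.32 for Tdg, -0.41 for Uhrf1 and -0.07 for Mbd2. For Tet3 the 95% confidence interval of the interaction ran from -0.77 to 0.85. These counts depended on how libraries were weighted. With array weights 4616 genes were called, 651 higher and 3965 lower, and among them Tdg was higher (1.22) and Dnmt1 (-0.82), Mbd2 (-1.15) and Tet3 (-0.76, adjusted p = 0.0166, limma) were lower. Without the 3 shallow libraries, which left only replicates 1 and 2 of PM-OVA, 721 genes were called, 612 higher and 109 lower, and no member.

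The partners of the members moved in both directions. Counts of these lists are to be read against all genes tested, of which many were called. In the Sham cohort 20.6% of all genes were called higher and 47.5% lower, and in the PM cohort 20.1% and 45.2%. Of 7 maintenance partners tested, 5 were called higher and 1 lower in the Sham cohort and 4 and 1 in the PM cohort. DNA ligase I (Lig1), which joins the new strand and is a docking site for UHRF1, rose from 8.42 ± 1.38 RPM in Sham to 40.8 ± 7.24 RPM in Sham-OVA (SD, n = 7 and 5; log2 fold change 2.21) and by 1.74 in the PM cohort. Cdca7, a partner of the remodeller HELLS, rose by 1.01 and 1.19, whereas the Uhrf1 relative Uhrf2 fell (log2 fold change -0.52 and -0.37). Of the other DNA methyltransferases, 2 were tested and the tRNA methyltransferase Trdmt1 fell (log2 fold change -1.58 and -1.65), while Dnmt3c did not pass the filter.

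Of 10 other genes from the families of methyl-CpG readers, 8 were called lower and 2 higher in the Sham cohort. In the PM cohort 7 were lower and 2 higher, and the medians were -1.06 and -0.94. The list includes Mbd3, Mbd5 and Mbd6, counted here by family and not by binding to methylated CpG. The zinc finger readers Zbtb33 (Kaiso) and Zbtb4 fell, with log2 fold changes of -3.07 and -2.14 in the Sham cohort and -2.63 and -2.04 in the PM cohort, respectively. Mbd3, which takes the place of Mbd2 in the other form of NuRD, rose by 0.89 and 0.68, and the thymine glycosylase Mbd4 by 0.70 and 0.52. Of 13 NuRD genes, 4 were higher and 7 lower in the Sham cohort and 2 and 7 in the PM cohort. Their medians of -0.42 and -0.45 were close to those of all genes (-0.48 and -0.43). Besides Mbd3, Mta2 rose by 0.42 and 0.39, while the histone chaperone Rbbp7 (-3.03 and -3.21) and the small subunit Cdk2ap1 (-2.16 and -1.83) fell.

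Base excision repair genes were called higher in 5 of 11 and lower in 3 in the Sham cohort, and higher in 4 and lower in 2 in the PM cohort. The repair polymerase Polb rose by 1.67 and 1.58 and the glycosylase Neil1 by 1.33 and 1.18, while the uracil glycosylase Smug1 (-1.79 and -1.92) and DNA ligase III, Lig3 (-1.05 and -1.15), fell. Among 14 genes of the methyl donor cycle, 3 were higher and 6 lower in the Sham cohort and 2 and 8 in the PM cohort. Their medians were -0.57 and -0.61, beside -0.48 and -0.43 over all genes. The serine hydroxymethyltransferases Shmt2 and Shmt1 rose by 1.84 and 1.11 in the Sham cohort and by 1.37 and 0.91 in the PM cohort. Mat2a, which makes S-adenosylmethionine, fell (-1.80 and -1.81).

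Of 12 genes that supply TET cofactors or partner the TET enzymes, 2 were higher and 5 lower in the Sham cohort and 3 and 5 in the PM cohort, with medians of -0.33 and -0.46, close to those of all genes. Idh1, which makes the cofactor 2-oxoglutarate, rose by 0.79 and 0.72, and the CXXC protein Cxxc5 by 0.73 and 0.64. D2hgdh, a dehydrogenase that clears the TET inhibitor 2-hydroxyglutarate, fell (-1.90 and -1.52). In PM compared to Sham, in PM-OVA compared to Sham-OVA and in the interaction, 0 genes of these lists were called.

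Levels of many cell type markers changed alongside, and in whole lung these do not give cell numbers. Of all genes tested, 20.6% were called higher and 47.5% lower in the Sham cohort, and 20.1% and 45.2% in the PM cohort. Summed levels of 5 interstitial macrophage markers were 133 to 376 RPM in saline libraries and 1365 to 2419 RPM in challenged ones, with 5 of 5 called higher in each cohort. Plasma cell markers summed to 340 to 532 RPM and 6652 to 12299 RPM (4 higher and 1 lower of 5 in each cohort), and eosinophil markers to 3.66 to 15.8 RPM and 19.6 to 48.0 RPM (4 higher, 1 lower). Fibroblast markers summed to 3952 to 5998 RPM and 1063 to 3881 RPM, with 4 of 5 called lower in each cohort. Of 5 markers each, B cells had 2 higher and 0 lower in both cohorts, T cells 3 and 1 in the Sham cohort and 2 and 1 in the PM cohort, and germinal centre B cells 2 and 1 and then 2 and 2. Alveolar macrophages had 0 higher and 3 lower and then 1 and 3, alveolar type 1 cells 1 and 3 and then 0 and 3, and alveolar type 2 cells 2 and 2 and capillary endothelium 1 and 2 in both cohorts. The part of these shifts in the member values was not tested.

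The genes whose log2 level was most like that of each member over the 23 libraries were named by Pearson's r, which is a description, since the libraries share the challenge and depth. For Tet3 these were Ankrd11 (r = 0.995) and Srrm2 (0.993), for Tet2 Morf4l2 (0.986) and Ss18 (0.984), and for Tet1 Rrm2b and Dnajc27 (both 0.978). Tet3 itself had r = 0.970 with Tet2 and 0.960 with Tet1. Around the group means these were 0.799 and 0.768, while Tet1 with Tet2 had 0.376 and pairs outside the family reached 0.878 (Mbd2 with Dnmt3a) and 0.874 (Mbd2 with Dnmt1). For Mbd2 the nearest genes were Adh5 (0.994) and Rheb (0.989), for Dnmt3a Abcc1 and Cbx1 (both 0.976), for Dnmt3b Srsf10 (0.948) and Mir17hg (0.933), and for Dnmt1 Ganab (0.916) and Lmnb1 (0.908). Tdg had its highest r with Vps11 (0.959) and Arhgef1 (0.952) and r = -0.906 with Mbd2, and Uhrf1 with the collagen genes Col1a2 (0.858) and Col1a1 (0.8288).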

How the data were processed

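Poly(A) RNA from lung of 23 mice was sequenced as single-end reads of 100 bases. The authors trimmed reads with Trimmomatic, mapped them to GRCm38 with Bowtie2 and quantified genes in SeqMonk. Whether strand and reads matching several places were used in counting is not given in the sources used here, although the kit keeps strand. The deposited values are RPM per gene, scaled by the authors to the library total. They are named RPKM, but 100% were whole multiples of 1 read (tolerance 0.02 reads), and reads were recovered from them. The tests of the authors (DESeq in SeqMonk) were not repeated.

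A gene was tested where 4 or more libraries had 0.5 RPM or above (16795 of 35322 genes), on log2(RPM + 0.5) with limma 3.58.1 (R 4.3.3), empirical Bayes with a mean-variance trend, on the libraries of each pair of groups, and with an interaction term over all 4 groups. Adjustment was by Benjamini-Hochberg over all genes. Alternatives were edgeR 4.0.16 and DESeq2 1.42.0 (on recovered reads), other scalings, filters and pseudocounts, one depth, array weights, a replicate block and each library left out. The fit without the 3 shallow libraries and the threshold of the study with DESeq2 were added after the data were seen. The scripts were tested on simulated data. Reads on genes ranged from 2298645 to 17393579 per library, and floors of 3 reads cover counting error only.

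The 9 genes and the gene and marker lists were chosen with earlier results of these data known. All 9 were named, and from each list the 2 highest and 2 lowest genes by mean log2 fold change among those called the same way in both cohorts, and for each member the 2 genes with the highest r. Some genes that this rule names are not reported here. Transcript length was that of the longest GENCODE vM21 transcript (98.5% of genes tested). Antisense genes overlap Dnmt3a, Dnmt3b, Tet2, Tet3 and Tdg. The sequence of Mbd2, its promoter and the pseudogenes of Tdg were not analysed here.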

Additional observations from a re-analysis of the deposited data

Results flagged for a closer look

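Among the 36 combinations of a member and a group, 2 held a library far from the others of its group, and chance gives about 1 in 20. The Uhrf1 level of PM replicate 5 was 2.17 RPM (37 reads), while the other PM libraries had 0.0688 to 0.593 RPM. The same library had the highest level of the proliferation marker Mki67 among the PM libraries, at 40.3 RPM. The Tdg level of Sham-OVA replicate 3 was 6.84 RPM (22 reads), while the other Sham-OVA libraries had 0.803 to 1.83 RPM. This library was the shallowest of the 23, with 2298645 reads on genes.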

How the results depend on the processing

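In the Sham cohort, 2 members (Dnmt1 and Tdg) were called higher with quantile, median-of-ratios or TMM scaling, with DESeq2, with edgeR and without the 3 shallow libraries, and 0 with one depth or the threshold of the study. There, 3 members (the Tet genes) were called lower with TMM scaling and with edgeR, and 1 (Tet3) with the threshold of the study in limma. In the PM cohort, 3 members (the Tet genes) were called lower with edgeR, and 0 higher and 0 lower with the threshold of the study in limma. That threshold with DESeq2, added after the data were seen, gave 0 members higher and 3 lower (the Tet genes) in each cohort. Array weights called 7 members lower in the PM cohort, with Dnmt1 (-0.58) and Dnmt3b (-1.11) added. There they moved the median of all genes from -0.43 to -0.62, and leaving out the 3 shallow libraries moved it to -0.14. They called 1 member higher (Tdg) and 3 lower (Dnmt1, Tet3 and Mbd2) in the interaction, where they called 4616 of all genes and the fit without the 3 shallow libraries 721. The cause was not tested. The calls of Tet1, Tet2 and Tet3 after the OVA challenge held in each alternative run other than the threshold of the study in limma, and they passed that threshold with DESeq2. Of 270 values of members after the challenge under alternatives, 239 kept direction and call, 13 lost the call, 8 gained it and 10 changed sign.

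With 1 library left out at a time, 1 to 2 members were higher and 5 to 5 lower in the Sham cohort, and 1 to 1 higher and 5 to 7 lower in the PM cohort, with 0 to 0 in each direction in the other comparisons. The second higher call, Dnmt1, appeared without Sham-OVA replicate 3 (log2 fold change 0.30), and the further lower calls, Dnmt1 (-0.41) and Dnmt3b (-0.75), without PM-OVA replicate 1. These refits moved Dnmt1 from -0.0535 to 0.30 and Uhrf1 from -0.0533 to 0.40 in the Sham cohort. In PM compared to Sham they moved Dnmt3a from -0.0629 to 0.0111, Tet3 from -0.0164 to 0.10, Uhrf1 from -0.13 to 0.24, Mbd2 from -0.0441 to 0.0408 and Tdg from -0.12 to 0.0558. In PM-OVA compared to Sham-OVA the ranges were -0.17 to 0.19 for Dnmt3a, -0.51 to 0.26 for Dnmt3b, -0.66 to 0.27 for Tet1, -0.36 to 0.30 for Tet2, -0.35 to 0.43 for Tet3 and -0.55 to 0.23 for Mbd2. In the interaction they were -0.15 to 0.21 for Dnmt3a, -0.26 to 0.51 for Dnmt3b, -0.84 to 0.0874 for Tet1, -0.24 to 0.41 for Tet2, -0.40 to 0.38 for Tet3 and -0.55 to 0.24 for Mbd2.

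Signs changed for these values, none of which was called except Tet3 under array weights. In the Sham cohort Uhrf1 was -0.0739 with a pseudocount of 0.1 and -0.28 with one depth. In the PM cohort Dnmt1 was 0.0889 with quantile normalisation, 0.0534 with median-of-ratios, 0.15 with TMM, 0.0788 with DESeq2 and 0.0771 with edgeR, Uhrf1 was 0.17 with quantile normalisation and 0.26 without the 3 shallow libraries, and Dnmt3b was 0.0531 without these. In PM compared to Sham, array weights gave 0.0139 for Dnmt3a, -0.0746 for Uhrf1 and 0.0416 for Mbd2, removal of the length and GC trend 0.0298 for Mbd2, a pseudocount of 0.1 gave 0.0148 for Tdg and quantile normalisation 0.0261. In PM-OVA compared to Sham-OVA, array weights gave -0.30 for Dnmt3a, -0.41 for Tet2 and -0.37 for Tet3, trend removal -0.0077 for Dnmt3a, and one depth 0.27 for Tet1 and 0.20 for Uhrf1. Without the 3 shallow libraries that comparison gave 0.0588 for Dnmt3b, 0.63 for Tet1, 0.27 for Mbd2 and -0.0040 for Tdg. In the interaction, array weights gave -0.46 for Dnmt3a, -0.86 for Dnmt3b, -0.63 for Tet2 and -0.76 for Tet3, one depth 0.0974 for Tet1, trend removal -0.0010 for Tet3, and the fit without the 3 shallow libraries 0.45 for Tet1 and 0.27 for Mbd2.

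Replicate numbers here are those of the sample titles, and most challenged libraries carry another number in their library name. By title number, same-numbered libraries correlated from -0.31 to 0.62 in their deviations, and no comparison had each pair above 0.1. Pairing by library name was not tested, so the correlations and the replicate block cannot decide whether samples were paired. With the replicate block 1 member was higher and 4 lower in the Sham cohort, where Mbd2 lost its call (adjusted p = 0.0504, limma), and 1 higher and 5 lower in the PM cohort. In PM-OVA compared to Sham-OVA the block gave 0.0071 for Dnmt3b, -0.0783 for Tet2 and 0.0245 for Mbd2. Depth limits Uhrf1 (0 to 37 reads), Tdg (4 to 40 reads) and Tet1 in the challenged libraries (0 to 44 reads).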

Other observations

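Relatives and antisense neighbours of the members had the following levels. Dnmt3l, the cofactor of de novo methylation in germ cells, had median levels of 0.0634 RPM (Sham), 0.256 RPM (PM), 0.226 RPM (Sham-OVA) and 0.531 RPM (PM-OVA). These rest on 0 to 19 reads per library. Group ranges overlapped, from 0 to 0.810 RPM in Sham and from 0.0773 to 1.46 RPM in PM-OVA, and Dnmt3l was not called in any comparison. Of the antisense genes, Dnmt3aos was at 0.146 RPM or below, Dnmt3bos at 0.773 RPM or below and B230319C09Rik, opposite Tet3, at 0.395 RPM or below, where the members ran to far higher values. Glt8d2, opposite Tdg, was above Tdg in level in the saline groups, with medians of 4.37 RPM (Sham) and 3.73 RPM (PM), and had medians of 2.17 RPM (Sham-OVA) and 3.92 RPM (PM-OVA) after the challenge.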
